A study of Homo sapiens with 4 samples.

Results

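HNRNPH1, HNRNPF and RBM39 are 3 of the 9667 genes in the tables, and they were examined in ultraviolet-crosslinking libraries of a tagged CFAP20, taken by gene name. HNRNPH1 and RBM39 are RNA-binding regulators of splicing that stood among the strongest signals with the tagged protein, and HNRNPF is the close relative of HNRNPH1. They were chosen by their signal in these same libraries, tagged against control, so every level, ratio and rank of the 3 genes below is a description and carries no test. The cells were RPE1, a human cell line immortalised from the pigmented layer under the retina, labelled iCas9 and p53/puro-dKO. All 4 libraries came from CFAP20 knockout cells of this background. The 2 CFAP20-KO libraries are the negative control, from cells with no tagged protein. The 2 tagged-CFAP20 libraries came from the knockout cells expressing FLASH-BIO-CFAP20, a CFAP20 with a tag that streptavidin captures. The promoter of the transgene and whether each line is a single clone are not stated in the labels, and replicates are not said to be separate cultures, so p-values measure a spread between libraries that may be technical.

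Splicing regulators of the hnRNP H and F family bind runs of G in pre-mRNA and change which exons are joined. RBM39 is related to the U2AF proteins that recognise the 3' end of introns, and it is known as the protein that aryl sulfonamide drugs send for degradation. Many splicing regulators hold down their own level through alternative exons whose inclusion sends the transcript to nonsense-mediated decay. CFAP20 is named for its place in cilia, and the series asks whether it binds RNA. In FLASH-seq, ultraviolet light links a protein to the RNA it touches, the tagged protein is captured, RNase I trims the RNA, and the fragments left are sequenced.

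The unit is the deposited signal, read coverage in 200-base bins scaled per library to a target that is not given. Each value was a whole multiple of 1 step per library, taken here as 1 read over 1 bin and called an overlap. Depth differed widely. Over gene bodies the CFAP20-KO libraries held 9146 and 3908 overlaps and the tagged libraries 165189 and 134891, and summed gene signal was 2.17 times higher in the tagged libraries. CFAP20 itself is not among the genes analysed here, so the knockout was not checked. Of 9 retinal pigment epithelium markers, 4 were in the tables used and all 4 had signal in at least 1 library. Of the liver markers, ALB and SERPINA1 were at 0 in all 4 libraries. SNAP25, the 1 of 5 neuron markers in the tables used, had a signal of 0 in both controls and of 141.4 and 209.0 with the tagged protein, and its part in any result was not tested. No library of total RNA is used here, so more captured RNA and more of the gene's RNA in the cells cannot be told apart, nor can more cells and more RNA per cell.

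The stretches of sequence below lie where the signal on the strongest members gathered, and they are shown to place it against the splice sites. All are from hg38 on the minus strand, read 5′ to 3′, with exon bases in capitals and intron bases in lower case. The exon 4 stretches of RBM39 lie within the 2 bins with the highest mean tagged signal of all genes. They are followed by a 73-base exon inside RBM39 intron 2 that belongs to 9 annotated decay transcripts, and by HNRNPH1 exons 3 and 4.
RBM39 exon 4, 3′ splice site, chr20:35732126-35732155: gcgagtttttttcttctcagGAGGAAAAAA
RBM39 exon 4, 5′ splice site, chr20:35731921-35731950: GAAGTCCTTAgtatgtaactatagttatga
RBM39 intron 2 decay exon, 3′ splice site, chr20:35740588-35740617: ccatctatctctctttgtagACTTGCCTAA
RBM39 intron 2 decay exon, 5′ splice site, chr20:35740505-35740534: CAATCATAAGgtagtaattgagtgacttat
HNRNPH1 exon 3, 3′ splice site, chr5:179621388-179621417: aacggttgttttctttccagACTGCAAAAT
HNRNPH1 exon 3, 5′ splice site, chr5:179621222-179621251: TATGTTGAAGgtttgatttacattgcccta
HNRNPH1 exon 4, 3′ splice site, chr5:179621026-179621055: attctaagcacctctttcagTATTCAAGTC
The last 20 intron bases hold 14 pyrimidines before RBM39 exon 4, 15 before the decay exon, and 13 before each of HNRNPH1 exons 3 and 4. All 4 introns end in ag, and the 3 donor sites shown open with gt. A bin is longer than any of these stretches, so the data do not place reads within them.

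HNRNPH1 encodes hnRNP H1, a G-run binding regulator of exon choice (hg38 chromosome 5, minus strand, start 179624669, end 179614179). In CFAP20-KO replicates 1 and 2 its signal was 1162.0 and 3045.7. In the tagged libraries, in the same order, it was 11799.4 and 9168.1. Both tagged libraries lay above both controls, which was so for 69.4% of the 4461 genes with signal in at least 2 libraries. The means were 10484 ± 1861 (SD, n = 2) and 2104 ± 1332 (SD, n = 2), a ratio of 4.98. The controls rest on 14 and 11 overlaps, against 1576 in the tagged libraries together, and without CFAP20-KO replicate 2 the ratio was 9.02. HNRNPH1 ranked 2 of all genes by mean signal in the tagged libraries and 34 in the controls.

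RBM39 encodes a U2AF-like splicing factor (chromosome 20, minus strand, start 35741951, end 35703610). Its signal was 1660.0 and 2215.0 in the CFAP20-KO libraries, and 10449.8 and 8457.5 in the tagged ones, again without overlap between groups. The means were 9454 ± 1409 (SD, n = 2) and 1938 ± 392 (SD, n = 2), a ratio of 4.88. There were 20 and 8 control overlaps against 1420 in the tagged libraries together. RBM39 ranked 3 in the tagged libraries and 41 in the controls.

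HNRNPF encodes hnRNP F (chromosome 10, minus strand, start 43408882, end 43385617), and summed over the gene it lay the other way. Its signal was 1079.0 and 1938.2 in the CFAP20-KO libraries and 874.03 and 682.7 in the tagged ones. Both tagged libraries were below both controls, which was so for 1.91% of the genes tested. Among genes with at least 5 pooled control overlaps, 20.3% had a ratio of mean signal under 1. The means were 778.4 ± 135 (SD, n = 2) with the tagged protein and 1509 ± 607.5 (SD, n = 2) without, a ratio of 0.516. The controls held 13 and 7 overlaps and the tagged libraries 68 and 49, so the tagged libraries had more reads on the gene and less scaled signal. Without CFAP20-KO replicate 2 the ratio was 0.721.

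A share of each library's gene signal does not depend on how the library was scaled. The share of HNRNPH1 was 0.153% and 0.281% in the controls and 0.556% and 0.488% with the tagged protein, a ratio of 2.40. The 95% Clopper-Pearson interval of CFAP20-KO replicate 2, 0.119% to 0.562%, covered both tagged values. That of CFAP20-KO replicate 1, 0.0725% to 0.284%, held neither. The share of RBM39 was 0.219% and 0.205% in the controls and 0.492% and 0.450% with the tagged protein, a ratio of 2.23. Its interval in CFAP20-KO replicate 2, 0.0715% to 0.458%, held the lower of the tagged values. In CFAP20-KO replicate 1 the interval, 0.119% to 0.367%, held neither. The share of HNRNPF was 0.142% and 0.179% in the controls and 0.0412% and 0.0363% with the tagged protein, a ratio of 0.241. Its intervals were 0.0651% to 0.269% and 0.0570% to 0.422% in the controls. With the tagged protein they were 0.0303% to 0.0547% and 0.0252% to 0.0508%. These intervals count an overlap as less than a read and cover counting error only. They are no test, since the genes were chosen on this contrast.

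By share, both tagged libraries lay above both controls for 50% of the 4461 genes and below both for 10.2%. Most of those genes have hardly any control reads. Among the genes with at least 5 pooled control overlaps, 19.8% of those tested and a minimum chosen after the data were seen, the figures were 11.0% above and 37.0% below, and the median ratio of signal was 1.61. HNRNPH1 had a ratio above that of 96.6% of these genes, RBM39 above 96.3%, and HNRNPF above 3.97%. The minimum keeps genes with high control values, which lowers the ratios of the set as a whole.

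**Figure D1:**
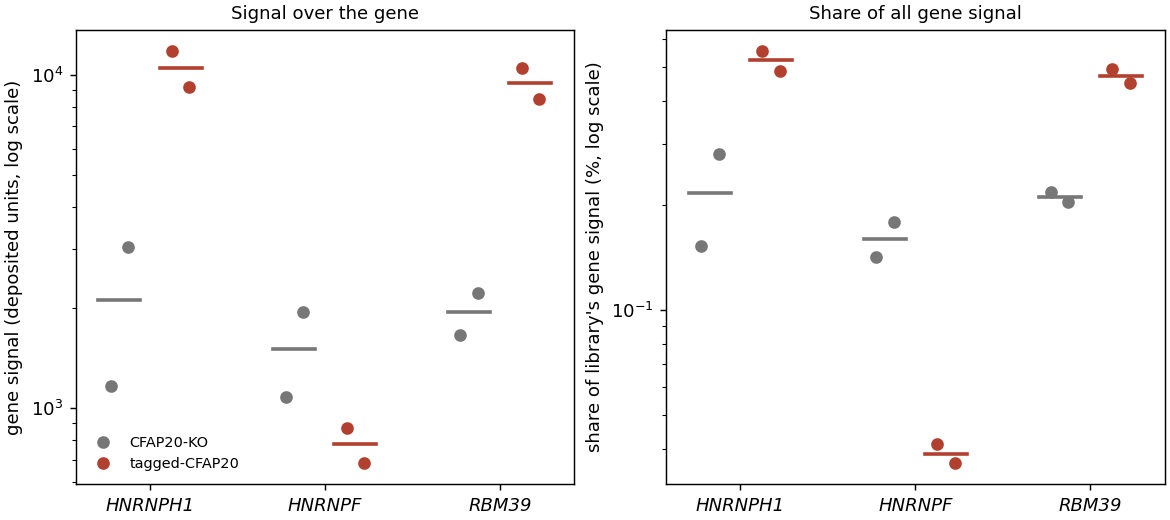
Signal over each gene (left, deposited units) and its share of the library's gene signal (right, %), both on log axes, with 1 point per library, grey for CFAP20-KO and red for tagged-CFAP20, and a bar at the mean of each pair. HNRNPH1 and RBM39 lie higher with the tagged protein and HNRNPF lower on both scales.

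HNRNPH1 and HNRNPF can be set against each other per length. In the tagged libraries HNRNPH1 had 989.03 ± 176 signal per kb of gene (SD, n = 2) and HNRNPF 33.3 ± 5.78 (SD, n = 2). Their ratio was 29.8 and 29.6 in the tagged libraries and 2.38 and 3.47 in the controls. Introns make up most of HNRNPF, so the ratio was also taken per kb of bins that hold exon bases. It was then 7.84 and 11.7 in the tagged libraries and 0.783 and 1.30 in the controls. On either scale the tagged libraries lay above the controls.

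The coding sequences of HNRNPH1 and HNRNPF, 1347 and 1245 bases without the stop codon, were identical at 78.4% of 1240 aligned bases, and the longest stretch they share was 38 bases. HNRNPH1 and HNRNPH2 were identical at 87.6% of bases, with a longest shared stretch of 50. HNRNPH1 has 3 processed pseudogenes named after it, of which HNRNPH1P3 is 92.1% identical over 1224 aligned bases. RBM39P1 is 95.4% identical to the coding sequence of RBM39, with a longest shared stretch of 133 bases. The labels do not say how reads with more than 1 match were treated, so exon signal of all 3 genes is uncertain to that extent. Intron signal is not shared with processed pseudogenes. No other annotated gene overlaps any of the 3 genes.

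Of 6 relatives listed, GRSF1 and PUF60 were in the tables used. The others, HNRNPH2, HNRNPH3, RBM23 and U2AF2, are not analysed here. GRSF1, a G-rich sequence factor with RNA-binding domains like those of hnRNP H and F, had a signal of 0 and 276.9 in the controls and 462.7 and 404.1 with the tagged protein. That control value is 1 overlap. PUF60, a U2AF-like factor, had 166.0 and 553.8 in the controls and 411.3 and 487.7 with the tagged protein, so its groups overlapped. Per kb of gene with the tagged protein, HNRNPH1 stood at 989.03, RBM39 at 246 ± 36.7, HNRNPF at 33.3, PUF60 at 33.1 ± 3.97 and GRSF1 at 17.9 ± 1.71 (SD, n = 2 each). HNRNPF and PUF60 did not differ beyond their spread.

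HNRNPH1 has 14 exons in its canonical transcript, 12 of them coding, and its signal gathered in the 5' part of the coding exons and the introns between them. The stretch from exon 2 to exon 5 holds 37.7% of the bins of the gene and held 73.3% and 74.2% of its overlaps in the tagged libraries. The same stretch held 8 of 14 and 7 of 11 overlaps in the controls. Exon 3 (179621242 to 179621397) was the strongest exon, with 168 and 101 overlaps in its 2 bins, 18.3% and 15.4% of the gene. In the controls it had 3 and 0 overlaps.

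Bins of HNRNPH1 that lie wholly in introns carried 42.6% and 44.4% of its overlaps in the tagged libraries. Intron 4 (179619408 to 179620891) had 169 and 129 overlaps with the tagged protein, 18.4% and 19.6% of the gene, and 3 in each control. Intron 2 (179621398 to 179623036) had 144 and 110, and 2 in each control. Within intron 2 lies a 134-base exon of 2 annotated decay transcripts (179621843 to 179621976), whose 2 bins held 48 and 55 overlaps. Intron 3 is too short to have a bin of its own. In contrast, the 3' UTR held 13 and 10 overlaps over 4 bins, 1.42% and 1.52% of the gene. The profile of HNRNPH1 over 53 bins had a Pearson r of 0.901 between the tagged libraries. Between overlaps summed over the tagged libraries and over the controls it was 0.301. Both are descriptions, since neighbouring bins share reads and the controls have 25 overlaps.

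**Figure D2:**
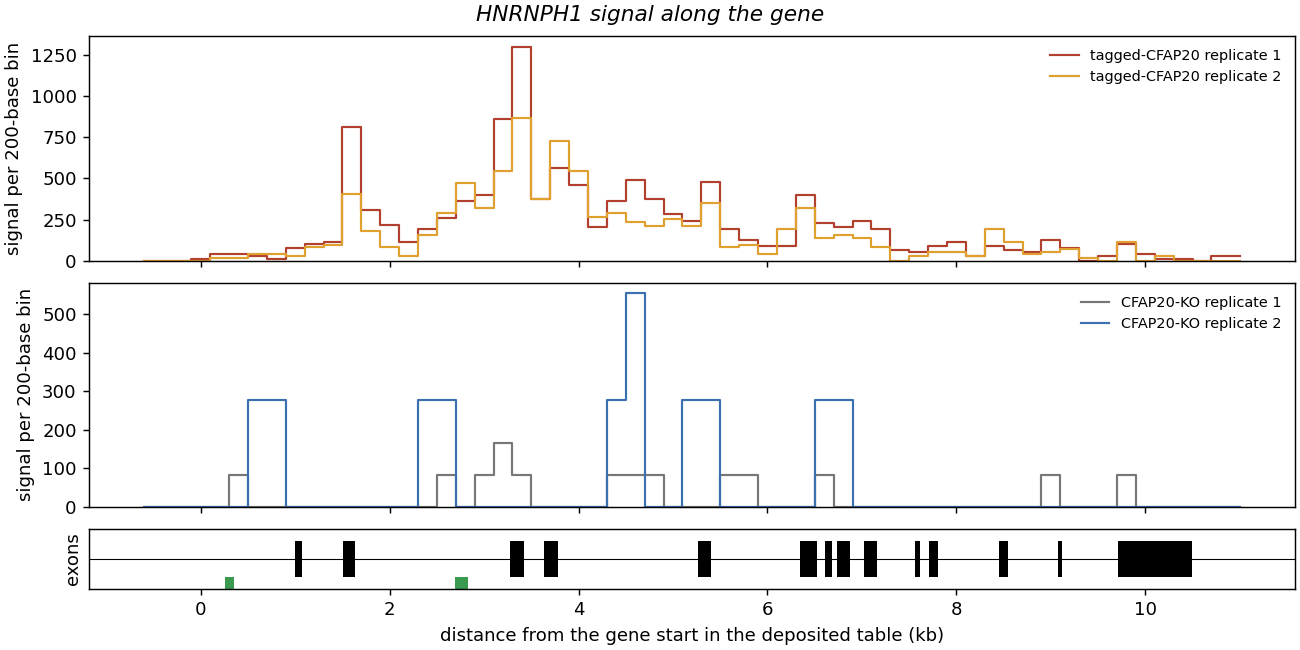
Signal per 200-base bin against distance from the gene start in kb for HNRNPH1, tagged-CFAP20 libraries above and CFAP20-KO libraries below on axes of different height. Canonical exons are black blocks, and exons of decay transcripts that overlap no canonical exon are green. Whether other transcripts also hold the green exons was not checked. Both tagged libraries rise from exon 2 to exon 5, with the highest bin at 3400 bases, and the control reads are scattered.

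RBM39 has 17 canonical exons, 16 of them coding, and a more pointed profile. Exon 4 (35731941 to 35732135), the 195-base exon whose splice sites are printed above, falls in 2 bins with 204 and 208 overlaps in the tagged libraries, 25.1% and 34.3% of the gene. These bins ranked 1 and 2 among the 160929 bins of all genes with signal in the tagged libraries, by mean signal (1610 ± 186 and 1150 ± 8.85, SD, n = 2). The stronger of them also ranked 1 among the 12263 bins with signal in the controls, at 443 by mean. The controls had 7 of 20 and 3 of 8 overlaps on exon 4. The concentration on exon 4 was thus present without the tagged protein, and the signal per kb there was 6900 ± 488 (SD, n = 2) with it and 1765 without. Exon 4 is identical to RBM39P1 at 95.8% of 192 aligned bases, and the longest stretch they share is 35 bases.

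The next concentration in RBM39 was intron 2 (35739018 to 35740823). It had 149 and 123 overlaps in the tagged libraries, 18.3% and 20.3% of the gene, and 3 and 0 in the controls. Its signal was 1134 ± 89.0 per kb (SD, n = 2), against 64.6 ± 7.78 in intron 3 and 6.92 ± 1.58 in intron 9. The difference between introns of the same gene far exceeded the spread between libraries. Intron 2 holds the 73-base decay exon printed above (35740525 to 35740597), whose bin had 15 and 23 overlaps, and a 155-base exon of 1 decay transcript (35739393 to 35739547), whose 2 bins had 45 and 34. Signal was spread over the other bins of the intron as well.

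Outside intron 2, the bins of decay exons in RBM39 held from 0 to 14 overlaps per tagged library. The 156-base decay exon in intron 11 had 14 and 6, and the 53-base one in intron 13 had 5 and 2. The 72-base exon of 3 decay transcripts in intron 3 had 2 and 3 overlaps, and the 55-base exon of 2 decay transcripts in the same intron had 0 in each tagged library. Exon 3, the 50-base coding exon between introns 2 and 3, had 49 and 30 overlaps. From exon 2 to exon 4 lay 57.4% and 67.9% of the overlaps of the gene in 22.5% of its bins, against 14 of 20 and 4 of 8 in the controls. The 3' UTR, in 16 bins, had 6 and 7 overlaps. The deposited gene end lies inside this UTR, so bins beyond it are in this count and not in the gene sum. At the other end, the canonical transcript starts at 35742260, upstream of the deposited start, so part of exon 1 is in no sum or share here. The bin at -200, which lies wholly in exon 1, had 7 and 6 overlaps in the tagged libraries.

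**Figure D3:**
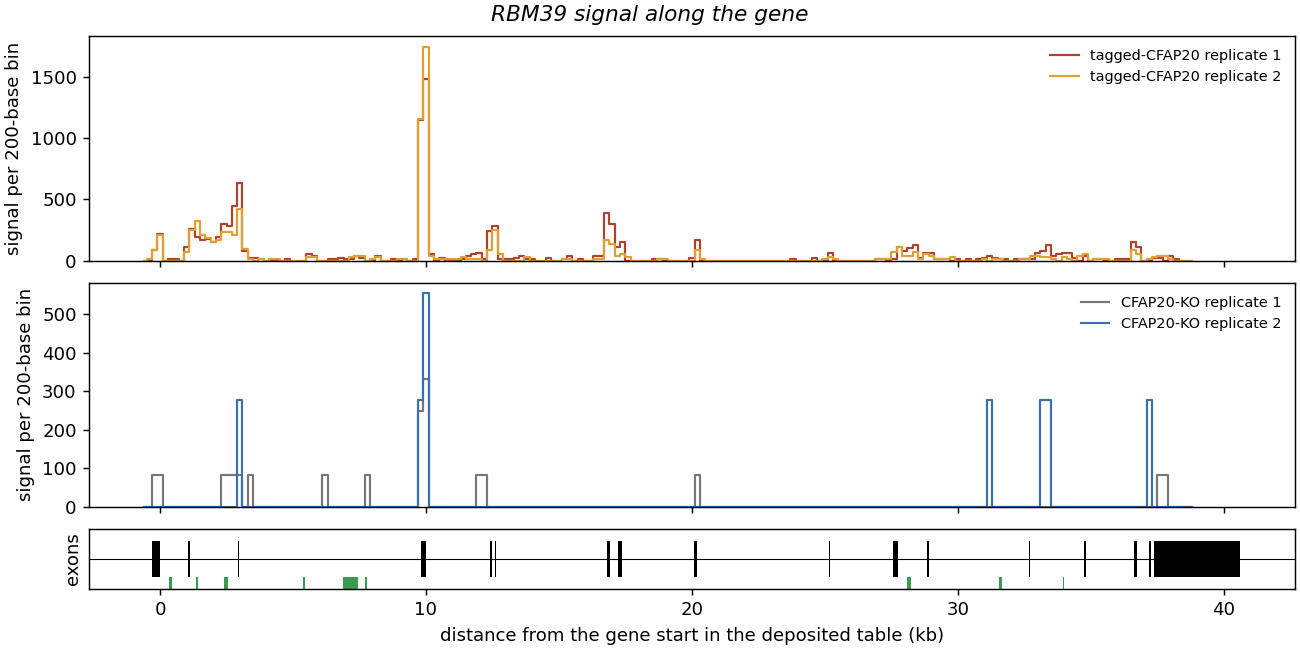
Signal per 200-base bin against distance from the gene start in kb for RBM39, tagged-CFAP20 libraries above and CFAP20-KO libraries below on axes of different height. Canonical exons are black, and exons of decay transcripts that overlap no canonical exon are green. Whether other transcripts also hold the green exons was not checked. The peak at exon 4 is the highest in all 4 libraries, and intron 2 and exon 3 form the next rise in the tagged libraries.

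The profile of RBM39 over 192 bins had a Pearson r of 0.961 between the tagged libraries, as a description. Between overlaps summed over the tagged libraries and over the controls it was 0.866. Of the 28 control overlaps, 13 lay in the 5 bins that were strongest with the tagged protein. For HNRNPH1 that was 3 of 25, and for HNRNPF 2 of 20. The controls of RBM39 and HNRNPH1 thus differed in how far their reads fell where the tagged signal was, which was not tested.

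HNRNPF has 4 exons, of which exon 4 holds the whole coding sequence, and no annotated decay transcript. Its exon 1 lies upstream of the deposited gene start and is in no sum or share here. The bin at -200, with 52 exon bases, had 2 overlaps in each tagged library. Exon 4 had 36 and 15 overlaps in the tagged libraries, 52.9% and 30.6% of the gene. It had 5 and 0 in the controls. In signal, exon 4 stood at 462.7 and 209.0 in the tagged libraries and at 415.0 and 0 in the controls, so the groups overlapped. The means per kb were 140 ± 74.8 (SD, n = 2) with the tagged protein and 86.5 without. The lower signal of the whole gene was thus not seen on exon 4. The control reads lay mostly in introns, with 8 of 13 in intron 1 for replicate 1 and 4 of 7 in intron 3 for replicate 2. Introns make up most of the gene, however. Per kb, exon bins held 4.25 and 2.72 times the overlaps of intron bins in the controls, from 5 and 2 exon overlaps. In the tagged libraries the figures were 11.7 and 4.69. Intron 1, over 61 bins, had 16 and 15 overlaps in the tagged libraries. Its 3' UTR had 11 overlaps in tagged-CFAP20 replicate 1 and 0 in replicate 2. The tagged libraries had an r of 0.279 over 117 bins, so at this depth its profile was not alike between replicates.

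**Figure D4:**
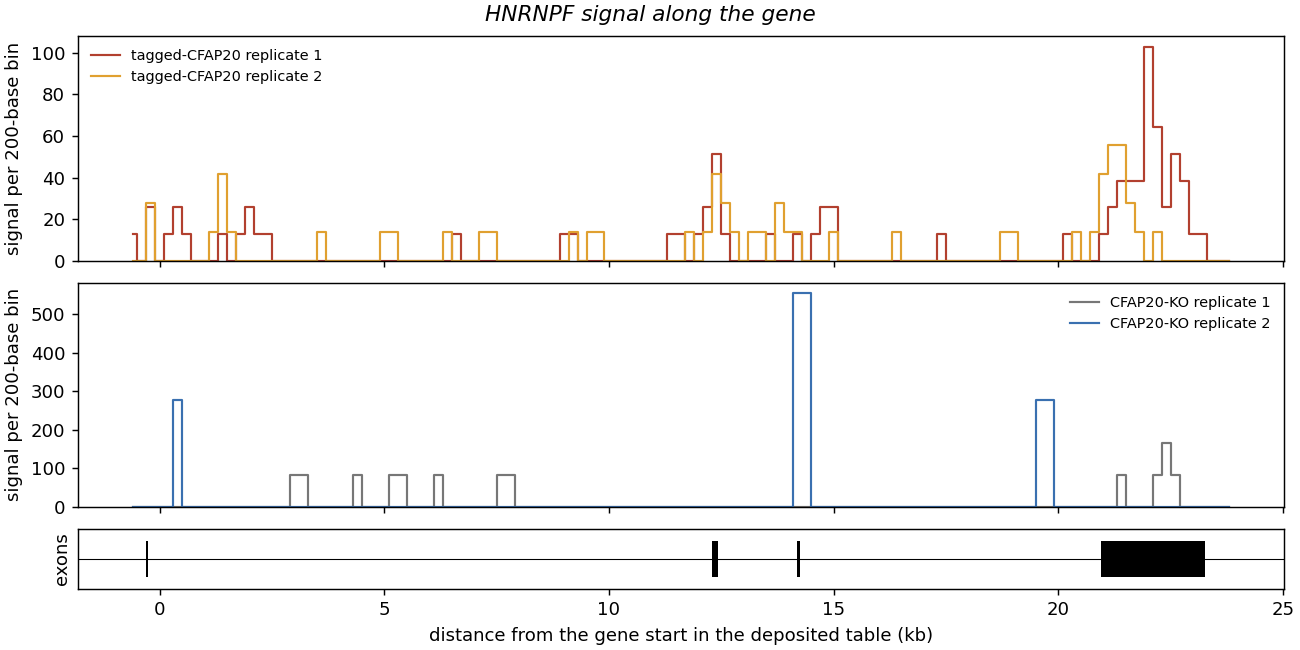
Signal per 200-base bin against distance from the gene start in kb for HNRNPF, tagged-CFAP20 libraries above and CFAP20-KO libraries below on axes of different height, with canonical exons as black blocks. Tagged signal rises over the last exon, while the controls hold 1 or 2 overlaps in each bin with signal. These lie in introns and also on exon 4 for replicate 1 and exon 3 for replicate 2.

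Exons and introns were compared over the 1630 genes with at least 50 overlaps in the tagged libraries together, a minimum also chosen with the data in view. A bin counted as exon if it held at least 1 exon base of the canonical transcript. The exon share of overlaps was 56.3% and 54.4% in HNRNPH1, 63.2% and 40.8% in HNRNPF and 60.0% and 63.4% in RBM39 (tagged replicates 1 and 2). In the controls it was 42.9% and 36.4%, 38.5% and 28.6%, and 60.0% and 62.5%. The median over the 1630 genes was 40.3%. Exon bins make up 43.4% of HNRNPH1 but 12.8% of HNRNPF and 15.6% of RBM39, so the share alone does not compare them.

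Per kb, HNRNPH1 and RBM39 parted. With the tagged libraries summed, exon bins held 190 overlaps per kb in HNRNPH1, 145.5 in RBM39 and 21.0 in HNRNPF, beside a median of 7.95. Bins without exon bases, called intron bins here, held 117 per kb in HNRNPH1, more than in 1627 of the 1630 genes. They held 16.9 in RBM39 and 2.65 in HNRNPF, beside a median of 1.68. In HNRNPH1 they include 5 bins upstream of the canonical transcript, with 10 and 8 overlaps in the tagged libraries. The level of HNRNPH1 over introns alone was thus higher than 117. By these bins the exon level was 1.63 times the intron level in HNRNPH1, a ratio above that of 8.22% of genes. The upstream bins raise this ratio. The same ratio was 8.62 in RBM39 and 7.93 in HNRNPF, above 84.7% and 81.7%, and the median was 4.50. Counting only bins with at least 100 exon bases, the exon share was 26.4% in HNRNPH1 and 25.5% in RBM39, and counting exons of every annotated transcript, 90.9% and 87.5%. Annotated exons of all transcripts of HNRNPH1 add up to 9480 bases of its 10491, so under that rule nearly the whole gene is exon.

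**Figure D5:**
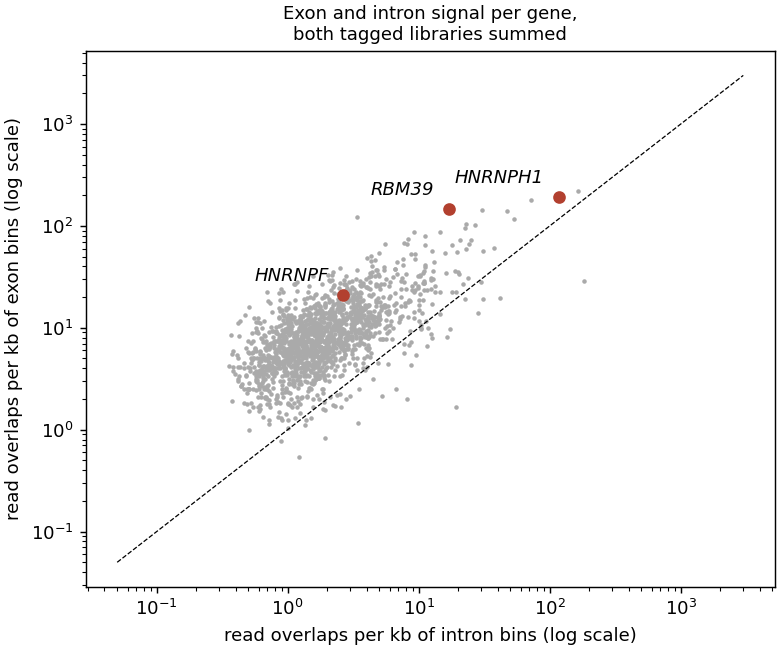
Overlaps per kb of exon bins against overlaps per kb of intron bins, on log axes, for 1608 of the 1630 genes (the other 22 have 0 on an axis), with both tagged libraries summed and the dashed line at equal levels. HNRNPH1 lies near the line at 117 and 190 per kb, while RBM39 and HNRNPF lie above it with most genes. Intron bins are all gene bins without exon bases, which in HNRNPH1 include 5 upstream of the canonical transcript.

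Base composition of the members' bins was read from the genome. The 10 strongest bins of HNRNPH1 held 30.5 ± 5.56% U and 24.8 ± 7.50% G (SD over bins), and its other 38 bins in the canonical transcript 33.1 ± 6.66% U and 23.0 ± 6.76% G. In RBM39 the 10 strongest bins held 30.7 ± 5.94% U and 21.0 ± 6.05% G, and the other 194 held 32.9 ± 6.42% and 21.3 ± 4.61%. In HNRNPF the 10 strongest bins held 22.6 ± 7.41% U and 28.9 ± 6.03% G, and the other 107 held 28.3 ± 7.66% and 24.1 ± 6.89%. These differences were not tested.

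Other splicing genes were taken from 5 lists of 128 genes other than the 3 above, of which 36 were in the tables used and 35 could be tested. In limma with Benjamini-Hochberg adjustment, 11 of the 35 were higher with the tagged protein and 0 were lower, beside 23.4% higher and 0.0224% lower of the 4461 genes tested. A gene could be tested with signal in the tagged libraries alone, and such a gene could only be called higher. HNRNPA0 and SNRPE, both called, had a signal of 0 in both controls. The count ended when libraries were given the same total signal over all windows or were quantile normalised, with 0 splicing genes and 0 genes in all called (limma, 36.6% and 14.1% of genes at an unadjusted p under 0.05). The splicing genes called were 24 and 29 without CFAP20-KO replicate 1 or 2, and 3 and 3 without tagged-CFAP20 replicate 1 or 2. The median log2 difference, on the scale of log2(signal + 276.88), was 1.10 for the 35 and 0.37 for all genes. With a pseudocount of 10 the medians were 1.91 for the 35 and 2.1 for all genes, so their order depended on the pseudocount. Of the 21 list genes with at least 5 control overlaps, 15 had a ratio above that of the summed gene signal and the median ratio was 3.38, against 31.4% and 1.61 for all genes with as many.

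Among hnRNP and related genes, 3 of 6 were called higher. The fit also called genes on simulated data with no change, so the calls here and below are not well controlled. PTBP2, the neuronal relative of the polypyrimidine tract-binding protein, had 1411 and 1107.5 in the controls and 5758.3 and 4723.4 with the tagged protein (log2 difference 1.85 ± 0.26 SE, limma adjusted p = 0.0374). EWSR1, a FET family protein, had a ratio of 3.25 and HNRNPC, a U-tract binding hnRNP, 1.60, and neither passed (limma adjusted p = 0.0685 and 0.217). Among SR proteins, which bind exonic enhancers, 4 of 11 were called. SRRM1 (5.42 times, adjusted p = 0.0526) and SRSF5 (3.45 times, adjusted p = 0.0622) did not pass in limma, and TRA2A did, at 3.82 times (adjusted p = 0.0406).

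Of 3 genes tested for recognition of the 3' end of introns, DDX46, a helicase of the U2 snRNP, was called at 4.13 times (limma adjusted p = 0.0374), and RBM17 and PUF60 had ratios of 2.68 and 1.25 without passing. Among other regulators 2 of 7 were called. DDX17, a DEAD-box helicase, was called at 2.29 times (limma adjusted p = 0.0475), and SFPQ and TIAL1 had ratios of 1.75 and 2.70 (adjusted p = 0.338 and 0.0839). Of the core spliceosome 1 of 8 was called. SNRNP70 of the U1 snRNP and PRPF38B had ratios of 4.32 and 3.94 (limma adjusted p = 0.0526 and 0.0502), and AQR 1.61 (adjusted p = 0.196). Among list genes with control signal, ratios above the 4.98 of HNRNPH1 were found in SRRM1 and, named after their values were seen, in SRSF6 (13.5), SRSF7 (6.33) and HNRNPR (5.35). The last 3 were called in limma (adjusted p = 0.0477, 0.0374 and 0.0375), and the control value of SRSF6 rests on 4 and 0 overlaps.

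The genes nearest to each member over the 4 libraries were found by Euclidean distance of log2(signal + 276.88). RBM39 was nearest to HNRNPH1 (0.63), followed by PLK2, a polo-like kinase (1.00), and MKI67, the Ki-67 proliferation antigen (1.07). SLC4A7, a bicarbonate transporter, was nearest to RBM39 (0.60), followed by HNRNPH1 and PLK2 (0.76). LOX, the collagen crosslinking enzyme, was nearest to HNRNPF (0.53), with 1494.0 and 1938.2 in the controls and 758.3 and 933.5 with the tagged protein, followed by ZDHHC7 (0.68) and FAM155A-IT1 (0.70). With 4 libraries, such likeness says that levels were similar and no more.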

How the data were processed

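FLASH-seq signal of 2 CFAP20-KO and 2 tagged-CFAP20 libraries was used, grouped by their titles. The authors deposited 1 table of signal per library in 200-base bins around each gene start. Per the labels the build is hg38, and HOMER 4.8.2, R 4.0.5, Bowtie2 2.3.5 and UMI-tools 1.0.0 were used per the submitters' processing notes, with no role or order. The sources used here give no scaling target, duplicate removal, treatment of multiple matches or read length. The signal is not split by strand. The other deposited columns describe the gene (position, strand, length), and 1 further column matched no sample and was not used. In 100.0% of values the signal was a whole multiple of 1 step (tolerance 0.01), 83.0 and 276.88 in CFAP20-KO and 12.9 and 13.9 in tagged-CFAP20 replicates 1 and 2. A read touched 1.44 bins on average, so overlaps were divided by this for intervals, and 3 reads of the shallowest library are a signal of 1197.

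Bins were taken as centred on their labels, and the placement on exons and introns rests on this. A gene absent from 1 table was given 0 there, as 157 of 157 that could be seen through a neighbour's window were. Bins from the gene start to its deposited length were summed. Canonical exons came from GENCODE 44 (9478 genes matched), and sequences from the hg38 genome. As the files hold signal and not whole-read counts, limma 3.58.1 (R 4.3.3, trend) was fitted to log2(signal + 276.88), 1 step of the shallowest library, for the 4461 genes that had signal in 2 or more libraries (Benjamini-Hochberg, threshold 0.05). On simulated data with no change and these unequal depths the fit still called genes, so its calls are not well controlled. Named genes were the 3 members, 6 relatives, the 3 genes with most tagged signal in each of 5 splicing lists, and the 3 genes nearest to each member. Neighbours in rank, also in the rule, are not given. Members and lists were chosen with earlier results of these data known. Alternatives were other pseudocounts, scalings, filters, exon rules, gene spans, and leaving out each library. Python 3.11.15, NumPy 2.4.6, pandas 2.3.3 and Biopython 1.88 were used.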

Additional observations from a re-analysis of the deposited data

How the results depend on the processing

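Control values of the 3 genes rest on 7 to 20 overlaps per library, and differences of a few reads cannot be seen. The count of genes called in limma (1046) was 1681 with a pseudocount of 10, 0 with the same window total, 0 with quantile normalization, 89 with no filter and 445 with no trend, and 1801 to 2367 when leaving out a library in turn, where the lone library of a group is assumed to vary like the others. The splicing genes called (11) were 0 with the same window total, 0 with quantile normalization, 0 with no filter and 6 with no trend, and 3 to 29 without 1 library. The replicate block gave 1694 genes and 15 splicing genes. Replicates share only a number, and deviations of same-numbered libraries had an r of -0.042 over 4461 genes. With the same window total the signal ratio was 2.42 for HNRNPH1, 2.24 for RBM39 and 0.243 for HNRNPF. On exon bins alone the signal ratio of HNRNPF was 0.858 and its share ratio 0.331, and the share ratio of RBM39 was 1.92. Leaving out 1 library gave signal ratios of 3.44 to 9.02 for HNRNPH1, 4.27 to 5.70 for RBM39 and 0.402 to 0.721 for HNRNPF, and share ratios of 1.85 to 3.41, 2.13 to 2.33 and 0.216 to 0.273. The exon share was 26.4%, 90.9% and 25.6% in HNRNPH1 and 25.5%, 87.5% and 25.6% in RBM39 with at least 100 exon bases, exons of every transcript and signal split by exon bases. HNRNPH1 over HNRNPF was 29.7 per kb of gene, 9.76 per kb of exon bins and 28.7 without the strongest bins. No alternative turned the direction of a ratio of the 3 genes, and the cause of these shifts was not tested.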
